A study of Mus musculus with 26 samples.

Results

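The writers, copiers and erasers of DNA methylation are described here through the 5-hydroxymethylcytosine (5hmC) peaks found in their own RNAs. The 9 genes are Dnmt1, Dnmt3a, Dnmt3b, Dnmt3l, Uhrf1, Tet1, Tet2, Tet3 and Tdg. They were listed by name, and a peak was counted to a gene when the midpoint of its interval lay inside the span of that gene in the GENCODE M1 annotation of the mouse build mm9. Of the 56538 peaks of the series, 46 met this rule. Merging of overlapping intervals over all libraries placed them in 19 of the 23367 regions. Peaks were found in 8 of the 9 genes, beside 32.2% of all coding genes with a peak in at least 1 library, and Dnmt3a had none.

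RNA 5hmC was mapped by hMeRIP-seq, in which fragmented total RNA is precipitated with an antibody against 5hmC and sequenced beside an untreated input. The series has 13 immunoprecipitated (IP) libraries. WT ESC are wild-type mouse embryonic stem cells kept with leukaemia inhibitory factor (LIF), TKO ESC are stem cells knocked out for Tet1, Tet2 and Tet3, and WT EB are embryoid bodies collected after 4 days without LIF, with 3 replicates each. Tet2-KI ESC are wild-type stem cells in which CRISPR placed Flag, HA and Twin-Strep tags at the C terminus of the endogenous Tet2, and Tet2deltaRBD-KI ESC carry the same tags on a Tet2 without its RNA-binding domain, with 2 replicates each. The knock-in lines were grown from picked clones whose number is not given in the sources used here, and neither are the exons removed in the TKO ESC. The study describes its hMeRIP-seq replicates as independent experiments.

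Dnmt1 restores methylation on newly replicated DNA, to which Uhrf1 recruits it by binding hemimethylated CpG sites. Dnmt3a and Dnmt3b methylate DNA de novo, and Dnmt3l is a cofactor of theirs without catalytic activity. The dioxygenases Tet1, Tet2 and Tet3 oxidise 5-methylcytosine, in RNA as well as in DNA, and the glycosylase Tdg removes the more oxidised bases so that repair can restore cytosine. In stem cells Tet1 and Tet2 are the main members of the Tet family. The values below concern the RNAs of these genes as possible carriers of 5hmC and not the activity of the proteins.

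The sequences of 6 regions are shown because these regions recurred in every library of a group, or because they were the most widely found region of Tet2. Each is the 200 bases around the median summit, read 5′ to 3′ on the strand of the gene from the mm9 assembly. Capitals mark coding bases in the sequences of Dnmt1 and in Tet2 region 1. In Tet1 region 2 and Tet2 region 3 they mark runs of at least 8 bases of alternating T and G, and Tet2 region 4 has neither.

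Dnmt1 region 1 (chr9:20716556-20716755, minus strand): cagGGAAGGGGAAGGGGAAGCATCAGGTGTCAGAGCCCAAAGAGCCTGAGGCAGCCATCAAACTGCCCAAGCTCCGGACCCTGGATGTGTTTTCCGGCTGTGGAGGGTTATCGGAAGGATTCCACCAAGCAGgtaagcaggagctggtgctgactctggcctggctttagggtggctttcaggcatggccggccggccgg
Dnmt1 region 2 (chr9:20724379-20724578, minus strand): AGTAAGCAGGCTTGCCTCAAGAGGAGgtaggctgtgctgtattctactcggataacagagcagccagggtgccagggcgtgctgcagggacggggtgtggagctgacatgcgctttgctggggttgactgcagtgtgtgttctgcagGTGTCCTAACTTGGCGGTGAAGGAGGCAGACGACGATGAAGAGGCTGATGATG
Tet1 region 2 (chr10:62319656-62319855, minus strand): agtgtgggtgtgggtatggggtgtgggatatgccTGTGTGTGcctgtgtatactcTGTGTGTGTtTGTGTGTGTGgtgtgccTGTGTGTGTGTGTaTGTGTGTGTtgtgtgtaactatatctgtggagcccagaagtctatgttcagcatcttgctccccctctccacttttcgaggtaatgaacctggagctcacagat
Tet2 region 1 (chr3:133132325-133132524, minus strand): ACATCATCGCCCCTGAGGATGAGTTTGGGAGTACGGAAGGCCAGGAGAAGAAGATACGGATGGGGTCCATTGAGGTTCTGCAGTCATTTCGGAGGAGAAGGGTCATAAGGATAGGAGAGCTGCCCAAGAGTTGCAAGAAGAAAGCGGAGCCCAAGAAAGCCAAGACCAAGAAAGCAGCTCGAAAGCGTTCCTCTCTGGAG
Tet2 region 3 (chr3:133175797-133175996, minus strand): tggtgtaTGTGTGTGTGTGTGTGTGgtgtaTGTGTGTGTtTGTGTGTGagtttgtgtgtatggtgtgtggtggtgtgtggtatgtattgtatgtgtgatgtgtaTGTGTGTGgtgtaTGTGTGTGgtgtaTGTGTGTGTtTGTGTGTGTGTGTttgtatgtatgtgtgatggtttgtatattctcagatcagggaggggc
Tet2 region 4 (chr3:133189507-133189706, minus strand): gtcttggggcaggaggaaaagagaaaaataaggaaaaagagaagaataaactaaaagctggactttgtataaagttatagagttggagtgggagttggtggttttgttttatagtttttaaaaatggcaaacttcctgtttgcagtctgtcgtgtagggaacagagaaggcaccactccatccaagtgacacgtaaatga

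The lists were of unequal length, with 498 peaks in the shortest (WT EB replicate 1) and 10383 in the longest (Tet2-KI ESC replicate 1). Only peaks and no read numbers were at hand, so sequencing depth is unknown, and where no peak is listed none passed the authors' threshold. The height of a peak is its fold enrichment, IP relative to input, which was deposited for 9 libraries but not for the 4 knock-in libraries. Tet2deltaRBD-KI ESC replicate 2 stood apart from the other libraries. In that library 42.6% of the peaks in coding genes lay within 1000 bp of the gene's 5′ end, against 3.12% to 18.6% in the other 12, and all its peaks in coding genes had a median GC content of 65%, against 40.5% to 49.5%. Of the marker genes, 5 of 8 for stem cells and 2 of 10 for germ layers held a peak in some library. The share over all coding genes was 32.2%. A peak does not measure the level of its RNA, and the labelled cell types could not be checked from the lists.

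Tet1 held the most widely found peak of the set. Tet1 spans chr10:62267318-62361866 on the minus strand, and Tet1 region 2 lay at chr10:62319631-62319887 in intron 3 of its 13-exon transcript Tet1-001, an intron of 24429 bp. The summits of 11 libraries fell within 57 bp there, 7800 bp from the nearest splice site. All 10 stem cell libraries had this peak. Over the whole series 0.74% of the regions had a peak in every stem cell library, and 1.47% of the coding genes had a peak in at least 11 libraries.

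Among the genes knocked out in the TKO ESC, Tet1 kept its intron peak in all 3 libraries, whereas Tet2 and Tet3 were without peaks there. WT ESC likewise showed Tet2 in 1 library and Tet3 in none, so the lists do not check the knockout.

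Fold enrichment at Tet1 region 2 was 2.77, 5.29 and 5.25 in WT ESC replicates 1 to 3. In TKO ESC replicates 1 to 3 it was 4.69, 7.27 and 5.00, and in WT EB replicate 1, the sole embryoid body library with the peak, it was 6.80. The ranges of WT ESC and TKO ESC overlapped, with WT ESC replicate 1 the lowest and TKO ESC replicate 2 the highest of these 6. On the log2 scale the mean was 2.09 ± 0.54 (SD, n = 3) in WT ESC and 2.47 ± 0.34 (SD, n = 3) in TKO ESC. The difference of -0.38 had an exact permutation p of 0.6, and 0.935 after Benjamini-Hochberg adjustment over the 1179 regions of the series that could be compared. Over these regions the median difference was -0.19, 62.9% were lower in WT ESC, and none passed an adjusted or an unadjusted threshold of 0.05, because 3 libraries against 3 cannot give a p below 0.1. Within the libraries whose descriptions begin with 1703 the difference was -0.19.

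By height the Tet1 peak was below the median of its list in the 6 stem cell libraries with a value, and above it in WT EB replicate 1. Between 2.91% and 49.3% of the peaks in the same list were lower in the 6 stem cell libraries with a value, and 75.9% in WT EB replicate 1. The other Tet1 regions were each seen once and both lay in the same intron. Tet1 region 1 was in Tet2-KI ESC replicate 1, and Tet1 region 3, with a fold enrichment of 7.79, in TKO ESC replicate 2.

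**Figure D1:**
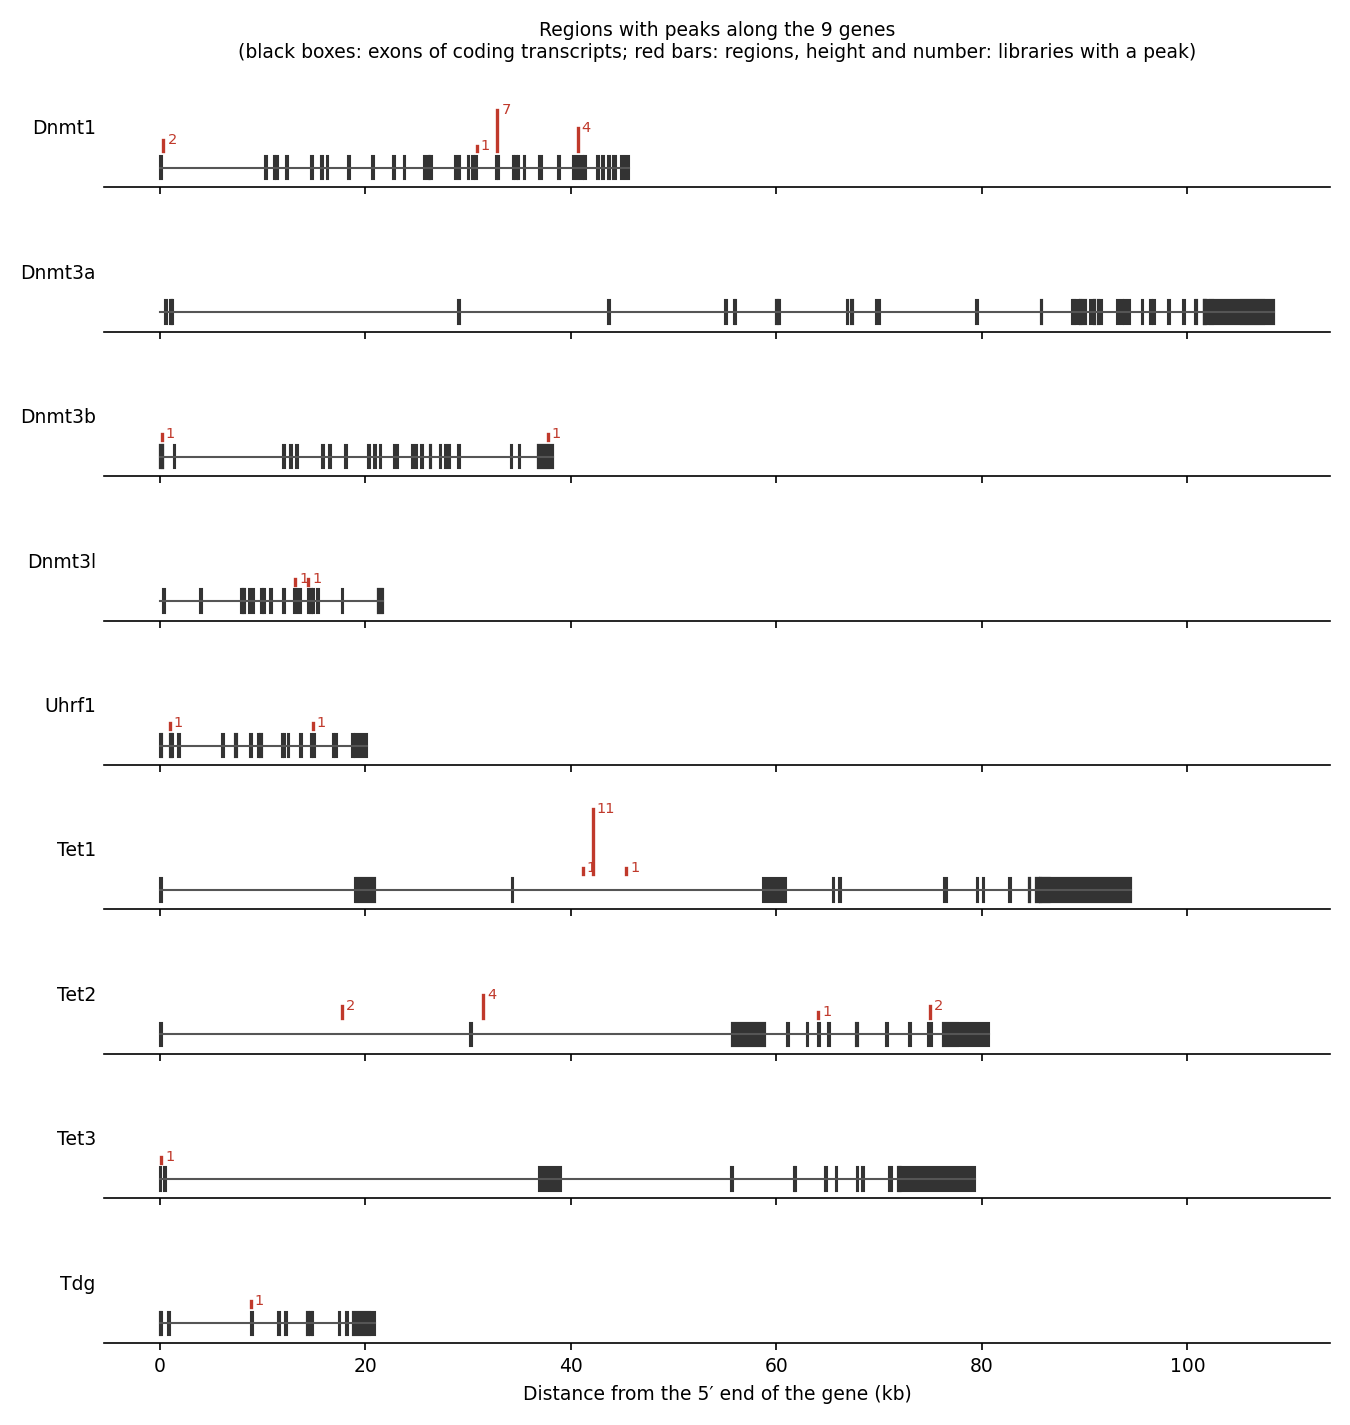
Regions with peaks along the 9 genes, drawn from the 5′ end of each gene in kb, with exons of coding transcripts as black boxes and each region as a red bar whose height and number give the libraries with a peak. Tet1 region 2 stands at 11 libraries inside a long intron, Dnmt1 region 2 at 7 libraries beside exons, and Dnmt3a is empty.

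Dnmt1, the maintenance methyltransferase, came next, with 14 peaks in 4 regions and a peak in 7 of the 13 libraries. A peak in at least 7 libraries was found for 5.92% of all coding genes. Dnmt1 spans chr9:20711650-20757317 on the minus strand and has 39 exons in its main coding transcript. Dnmt1 region 2 at chr9:20724350-20724614 held all of its peaks outside the knock-in lines. The 7 summits fell within 65 bp in intron 22, which is only 121 bp long, so that the window shown above carries 79 coding bases of both flanking exons.

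Fold enrichment at Dnmt1 region 2 was 10.6 in WT ESC replicate 1 and 7.08 in WT ESC replicate 2, and replicate 3 had no peak. In TKO ESC it was 7.45 in replicate 2, and the other replicates had no peak. No WT EB library had one, and all 4 knock-in libraries did. These peaks were higher than 91.1%, 73.6% and 53.8% of the peaks in their own lists. With fewer than 2 values in TKO ESC, the WT ESC and TKO ESC levels could not be compared.

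Dnmt1 region 1, at chr9:20716384-20716765 in coding exon 31, was present in all 4 knock-in libraries and in none of the other 9. The summits of 3 of these libraries fell in the exon, and that of Tet2-KI ESC replicate 2 lay in intron 31, so that the summits spread over 182 bp. When an overlap of at least 100 bp was required for merging, this region split. Among all regions with a peak in all 4 knock-in libraries, 13.6% had none in the other 9. The knock-in lists also differ from the others in having no fold enrichment column, and cell line and list processing cannot be told apart. Dnmt1 region 3 in coding exon 21 was seen in Tet2-KI ESC replicate 2, and Dnmt1 region 4 in intron 1, 340 bp from the 5′ end of the gene, in Tet2-KI ESC replicate 1 and Tet2deltaRBD-KI ESC replicate 2.

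**Figure D2:**
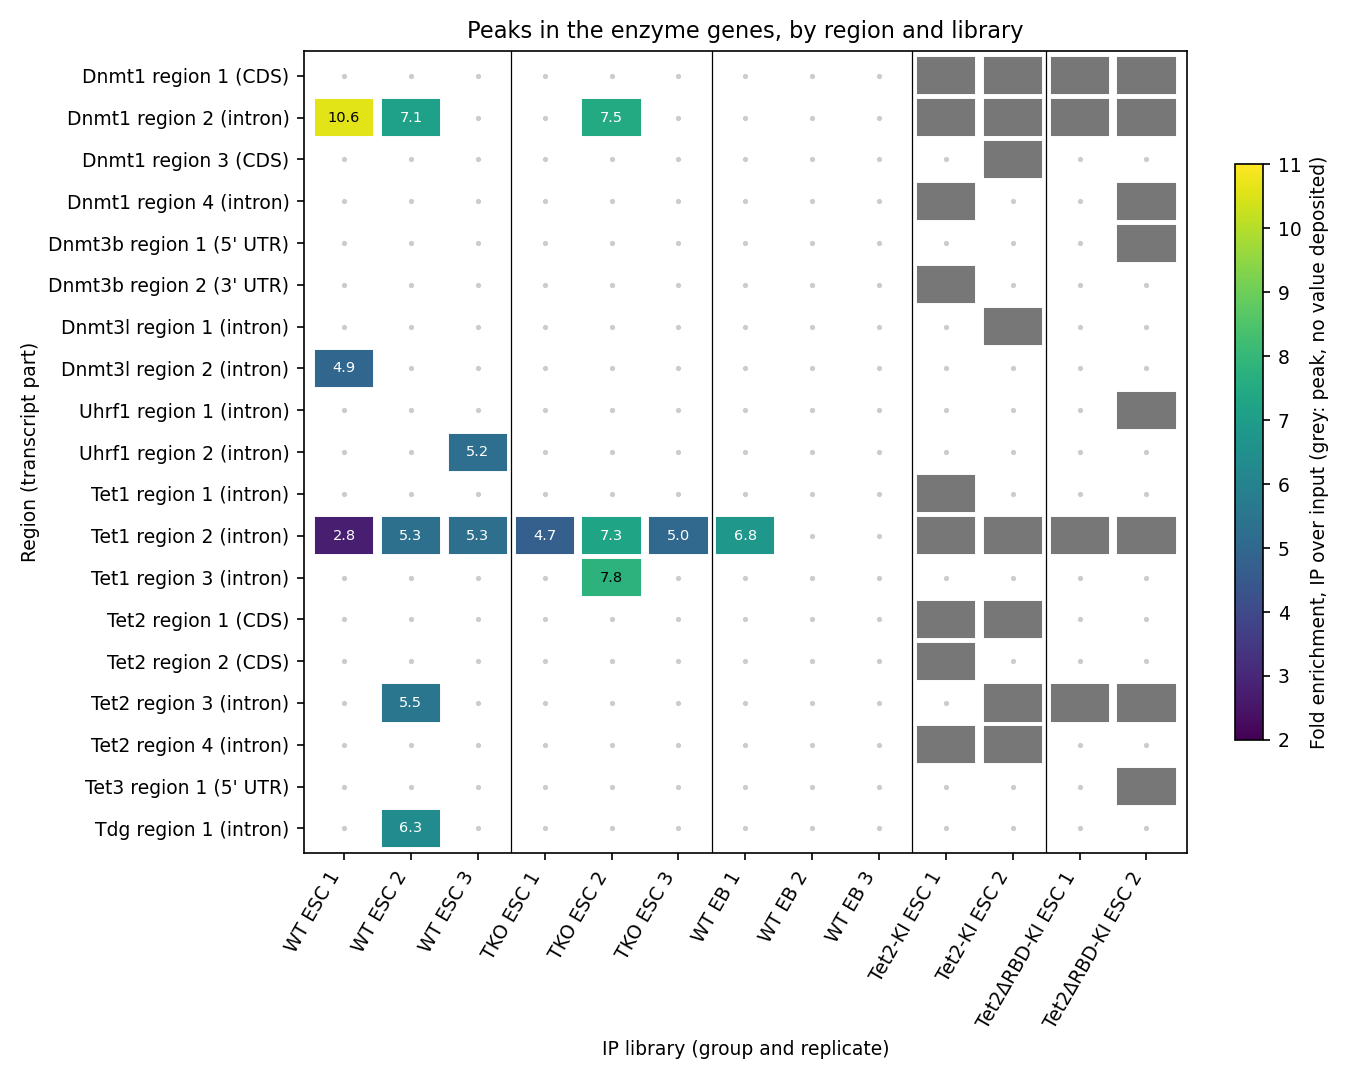
Presence of a peak in each of the 19 regions (rows, with the transcript part of the median summit) in each of the 13 IP libraries (columns, grouped by vertical lines), coloured and labelled by fold enrichment, with grey for knock-in peaks that have no deposited value. Tet1 region 2 fills every stem cell column, Dnmt1 region 1 fills only the 4 knock-in columns, and WT EB replicates 2 and 3 are empty.

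Tet2 held the 2 regions of the 9 genes that were present in every library of one knock-in group and in none of the other. It spans chr3:133126643-133207354 on the minus strand and held 11 peaks in 4 regions. Tet2 region 1 at chr3:133132325-133132530, inside coding exon 9 of a 10-exon transcript, and Tet2 region 4 at chr3:133189507-133189718, in intron 1 of an 11-exon transcript, had a peak in both Tet2-KI ESC libraries and in no other library of the series. The summits of the pair of libraries lay 6 bp apart in region 1 and 12 bp apart in region 4. Of the 5 regions of the 9 genes that were present in both Tet2-KI ESC libraries, these 2 had no peak in either Tet2deltaRBD-KI ESC library. Over the whole series the share was 35.6%, so a count of 2 in 5 is near the background. The count was 4 of 8 if replicate 1 of Tet2-KI ESC was left out, beside 55.4% of all regions under the same rule, and 5 of 9 if its replicate 2 was, beside 69.3%. It stayed at 2 of 5 without replicate 1 of Tet2deltaRBD-KI ESC, beside 66.9%, and without its replicate 2, beside 40.1%.

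None of the 4 Tet2 regions lay in the bases removed from the Tet2deltaRBD allele as far as the primers show. The primers that the study lists for its Tet2 vector point away from each other and leave out chr3:133129884-133130045. This is a stretch of 162 bases or 54 codons in the last coding exon, exon 10. Of the coding regions, Tet2 region 1 ended 2280 bp upstream of it and Tet2 region 2 13154 bp upstream. That the stretch is the RNA-binding domain is read from these positions and is not stated beside the primers.

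Tet2 region 3 at chr3:133175719-133176229, in intron 2 of the 11-exon transcript, followed another pattern. It was found in both Tet2deltaRBD-KI ESC libraries, in Tet2-KI ESC replicate 2 and in WT ESC replicate 2, there with a fold enrichment of 5.54. It held 6 peaks over 511 bp in these 4 libraries, and it split into 2 regions of 3 libraries each when merging required an overlap of at least 100 bp. Tet2 region 2, at the border of coding exon 4, was seen once, in Tet2-KI ESC replicate 1. Of the 4 regions of the 9 genes present in both Tet2deltaRBD-KI ESC libraries, 0 were absent from both Tet2-KI ESC libraries. Over all regions the share was 15.8%, and 4 regions are too few to tell a count of 0 from it. Without Tet2deltaRBD-KI ESC replicate 1 the count was 3 of 8, in Dnmt3b, Uhrf1 and Tet3, beside 49.2% of all regions. It was 1 of 4, Tet2 region 3, when Tet2-KI ESC replicate 2 was left out, beside 26.4%.

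Tet3 and Tdg, the remaining erasers, each had 1 peak. Tet3 region 1 lay in the 5′ UTR in exon 1, 98 bp from the 5′ end of the gene, in Tet2deltaRBD-KI ESC replicate 2. Tdg region 1 lay in intron 1 of Tdg-002, 44 bp from a 3′ splice site, in WT ESC replicate 2 with a fold enrichment of 6.30.

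Among the de novo methyltransferases and Dnmt3l every region was found in 1 library only, as were 53.6% of all regions. Dnmt3a, the longest of the 9 genes at 108437 bp, had no peak in any of the 13 lists. A peak in at least 1 library was found for 32.2% of all coding genes and for 68.4% of the 2146 coding genes at least as long as Dnmt3a. Dnmt3b had a 5′ UTR peak in Tet2deltaRBD-KI ESC replicate 2, where the gene 7530422B04Rik overlaps it, and a 3′ UTR peak in Tet2-KI ESC replicate 1. Dnmt3l had 2 peaks in intron 10, in Tet2-KI ESC replicate 2 and, 4.92-fold enriched, in WT ESC replicate 1. Uhrf1 had a peak in intron 1 in Tet2deltaRBD-KI ESC replicate 2 and a peak in intron 12, 5.20-fold enriched, in WT ESC replicate 3.

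Of the 19 regions, 12 had a peak in 1 library only, a count near the 53.6% over all regions. Also 12 of the 19 were found in the knock-in libraries alone, beside 34.7% of all regions. Peaks within 1000 bp of a gene's 5′ end came from Dnmt1, Dnmt3b, Uhrf1 and Tet3, and 4 of these 5 peaks belonged to Tet2deltaRBD-KI ESC replicate 2, the library with the most such peaks over all genes. Without this library Dnmt1 would keep 1 peak there and the other 3 genes none.

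By median summit, 12 of the 19 regions were intronic, 4 were in coding sequence, 2 in a 5′ UTR and 1 in a 3′ UTR. Introns held 78.3% of the 46 peaks of these genes and 67.1% of all peaks in coding genes. Of the 12 intronic regions, 4 lay within 100 bp of a splice site, in Dnmt1, Dnmt3l, Uhrf1 and Tdg, and 21.9% of the intronic peaks of all coding genes did so. Distances of the regions are to splice sites of the transcript used for the exon numbers. With exons of any coding transcript, Dnmt3l region 2 lay 33 bp and Uhrf1 region 1 lay 32 bp from an exon edge. The median summits of the 12 lay 43 to 12470 bp from a splice site, with a median of 593 bp. Over the intronic peaks of all coding genes the median was 1600.5 bp. The 12 count each merged region once, whereas the values over all coding genes count each peak, so the units differ.

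Between WT ESC and TKO ESC the number of regions per library was compared to ask whether fewer of these RNAs carried peaks without Tet enzymes. WT ESC libraries had 3, 4 and 2 regions and TKO ESC libraries 1, 3 and 1. The means were 3 ± 1 and 1.67 ± 1.15 (SD, n = 3 each), the groups overlapped, and the exact two-sided permutation p was 0.3. TKO ESC lists were also the shorter ones, with 964, 4323 and 3262 peaks against 4395, 7113 and 6499 in WT ESC. Shortening each list to its 498 highest peaks left only 1 peak of the 9 genes in WT ESC (Dnmt1 region 2, replicate 1), 0 in TKO ESC and 1 in WT EB (Tet1 region 2, replicate 1), too few to compare the groups at equal list length. Tet1 region 2 was the one region of the 9 genes present in all WT ESC libraries, and it was also present in TKO ESC and in WT EB replicate 1. Of all regions present in every WT ESC library, 32.2% were absent throughout TKO ESC and 54.9% lacked one throughout WT EB. Without WT EB replicate 1, Tet1 region 2 would be in WT ESC and not in WT EB, beside 59.9% of all regions under the same rule. Without WT ESC replicate 3, Dnmt1 region 2 would be, beside 62.8%. Tet1 region 2 was also the one region of the 9 genes present in all TKO ESC libraries, and 1.73% of such regions over the series had no peak in WT ESC. Leaving out TKO ESC replicate 1 moved this share to 18.8%.

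WT EB libraries had 1, 0 and 0 regions, and the mean of 0.333 ± 0.577 (SD, n = 3) was below that of WT ESC without overlap of the groups, with an exact two-sided permutation p of 0.1, the smallest that 3 against 3 allows. The embryoid body lists were again short, with 498, 1831 and 3532 peaks. Fewer modified RNAs and less RNA of these genes cannot be told apart in such lists, since a peak needs enough reads of its RNA.

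The share of each list that lay in the 9 genes takes its length into account. The shares were 0.0683%, 0.0562% and 0.0308% for WT ESC. For TKO ESC they were 0.104%, 0.0694% and 0.0307%, and for WT EB 0.201%, 0% and 0%. The last 2 zeros allow shares of up to 0.164% and 0.0849%. The exact permutation p was 0.5 for WT ESC against TKO ESC and 1 for WT ESC against WT EB. Leaving out WT EB replicate 1, with its single peak among 498, turned the difference from -0.0152 to 0.0518 percentage points, and leaving out TKO ESC replicate 1 turned that against TKO ESC from -0.0162 to 0.00173. Within the 1703 libraries the differences were 0.0435 against WT EB and -0.00652 against TKO ESC.

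Tet2-KI ESC libraries had 9 and 8 regions, and Tet2deltaRBD-KI ESC libraries 4 and 8. The exact permutation p was 0.667, and 2 libraries against 2 cannot give one below 0.333. By share of the list the order was the opposite, with 0.0867% and 0.156% in Tet2-KI ESC and 0.108% and 0.241% in Tet2deltaRBD-KI ESC and an exact permutation p of 0.667. Without Tet2deltaRBD-KI ESC replicate 2 the difference in shares went from -0.0533 to 0.0134 percentage points, and the difference in regions from 2.5 to 4.5. Without Tet2deltaRBD-KI ESC replicate 1 they went to -0.12 percentage points and to 0.5 regions.

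**Figure D3:**
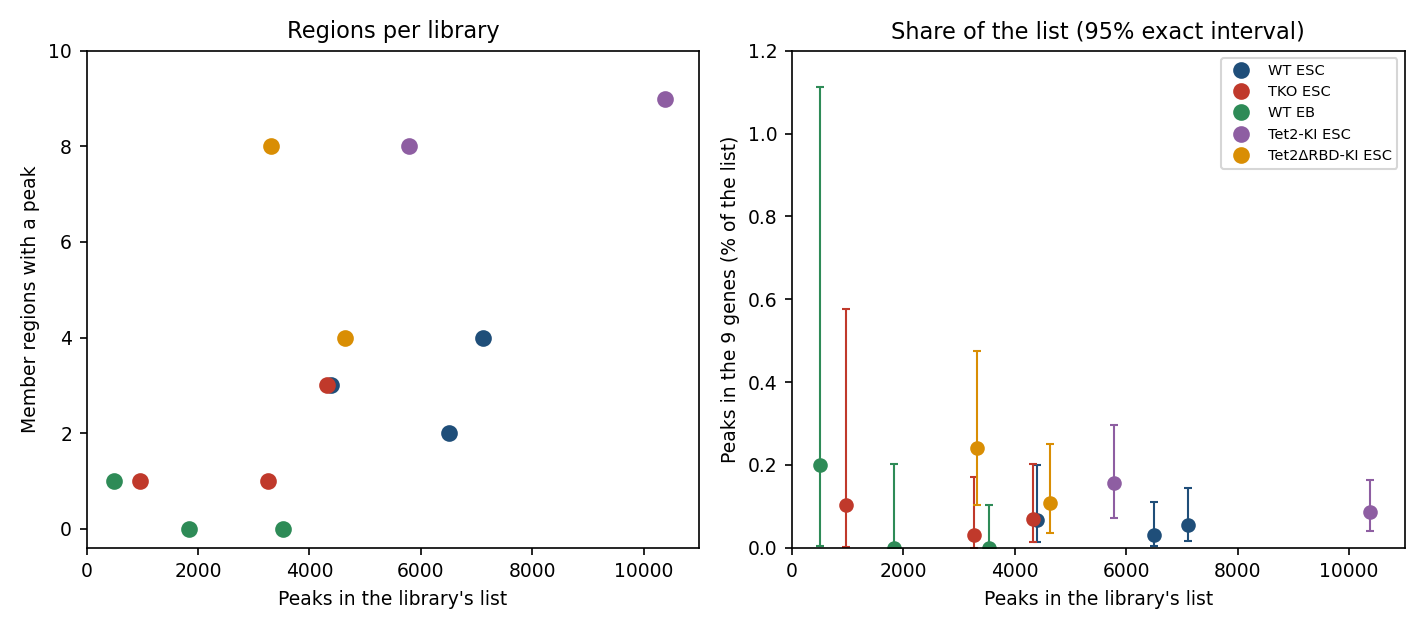
Regions of the 9 genes with a peak (left) and the percentage of peaks in the 9 genes with its 95% exact binomial interval (right) against the number of peaks in each library's list, 1 point per library, coloured by group. The knock-in libraries hold 4 to 9 regions and the others 0 to 4, and the intervals of the shortest lists are the widest.

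Of the 15 peaks of these genes with a fold enrichment, 6 were above the median of their own list, and the values ran from 2.77 to 10.6. The peaks above the median were those of Dnmt1 region 2, Tet1 region 3 and Tdg region 1, together with Tet1 region 2 in WT EB replicate 1.

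**Figure D4:**
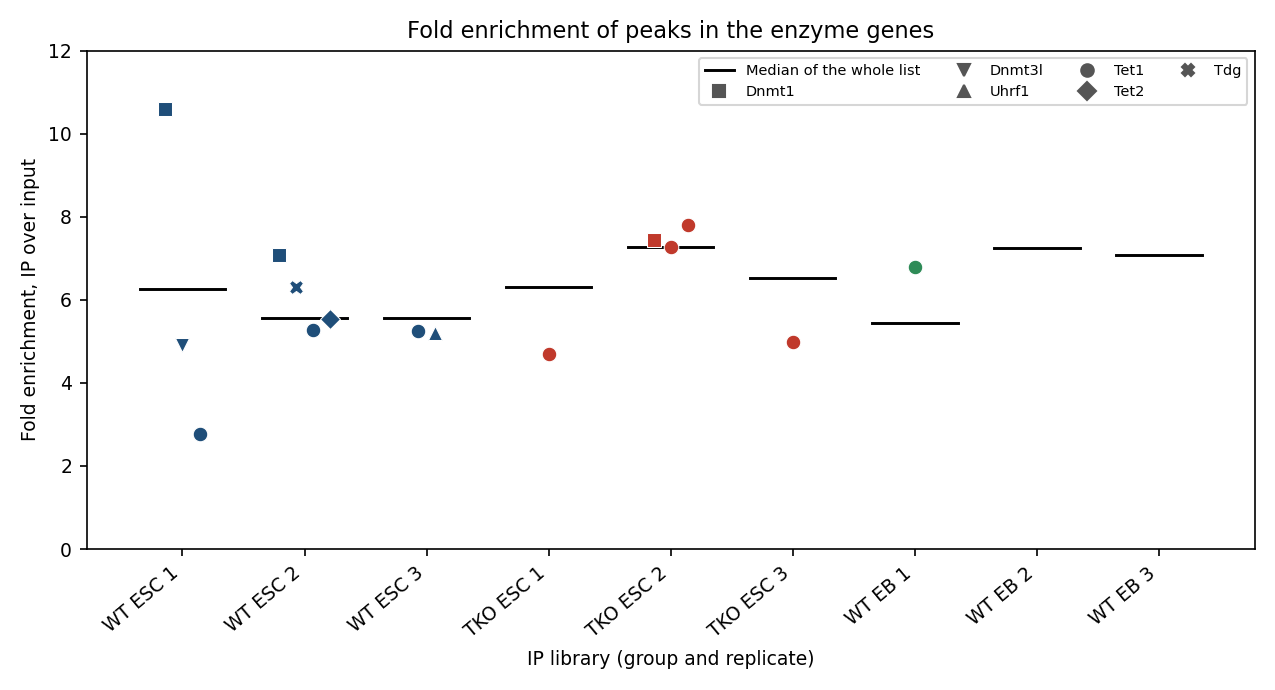
Height of peaks as fold enrichment, IP relative to input (linear axis), for the 15 peaks of the 9 genes in the 9 libraries with deposited values, by gene (symbol) and group (colour), with the median of each whole list as a black line. Dnmt1 in WT ESC replicate 1 is the highest at 10.6 and Tet1 in the same library the lowest at 2.77.

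The letters of the windows were described on the strand of the gene. Pyrimidines made up 34% to 58% of the bases in the 19 windows, with a median of 45.5%, beside a median of 40.5% over 45490 peaks in coding genes. The highest share was in Tdg region 1 and the lowest in Dnmt3l region 1. The letters TCTCTC were in none of the 19 windows and in 6.35% of those peaks, and their complement GAGAGA was in 2 windows, Dnmt3l region 1 and Uhrf1 region 2, and in 22.1% of those peaks. The windows shown above for Tet1 region 2 and Tet2 region 3 carried alternating T and G in 5 runs of 49 bases in all and in 7 runs of 73 bases in all. A run of at least 8 bases was also found once in Dnmt1 region 2, as 8 bases in the intron, and in no other of the 19 windows. Over all peaks in coding genes 5.92% held such a run and 2.85% held one of alternating C and A, its complement. These repeats were looked for after the sequences had been seen.

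Genes with the presence pattern most like that of Tet1 were Rimklb and Lrrfip2, which had a peak in the same 11 libraries and in no other, being among 3 such genes. For Dnmt1 they were Tmem132d and Acad11, among 7 genes with a peak in the same 7 libraries. The mean absolute difference in log2 fold enrichment from Tet1 was 0.84 and 1.15 over 7 libraries, and from Dnmt1 0.35 and 0.36 over 3 libraries.

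Of 37 further genes of the pathway, 23 held a peak, beside the 32.2% of all coding genes given above, and 10 had a region present in every library of a group, beside 10.6% of all coding genes. For 9 of the 10 the group was a knock-in group of 2 libraries. Mbd3 alone met the rule in a group of 3, as did 3.92% of all coding genes. Among the 9 readers of methylated DNA these were Mbd2, Mbd3 and Zbtb38. The 5′ UTR region of Mbd3, a methyl-CpG-binding domain protein of the NuRD complex, was present in all 3 WT ESC libraries. It had no peak in the other 10. Of all regions in every WT ESC library, 32.2% had no peak in TKO ESC and 54.9% had none in WT EB. The mean height of the Mbd3 region was 3.49 ± 0.31 (SD, n = 3), below the list medians of 6.25, 5.56 and 5.55. Of the 3 regions of Mbd3, another had a peak in 1 Tet2-KI ESC library. Mbd2, which binds methylated CpG sites, had an intronic region in 2 of 3 libraries in both WT ESC and TKO ESC, and fold enrichment there was 6.93 ± 0.12 and 6.14 ± 1.71 (SD, n = 2 each). A second region of Mbd2, in its coding sequence, had a peak in both Tet2deltaRBD-KI ESC libraries and in single libraries of Tet2-KI ESC, of WT ESC, 5.42-fold enriched, and of TKO ESC, 17.5-fold enriched. Zbtb38, a zinc finger protein that binds methylated DNA, had an intronic region in 5 libraries, and averaged 9.13 ± 1.80 (SD, n = 2) in the WT ESC libraries that had it.

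Among the 14 genes of base excision and deamination they were the uracil glycosylase Ung, the strand break sensor Parp1 and Gadd45a, a stress protein linked to demethylation. The Gadd45a region lay in the 5′ UTR and was found in 2 WT ESC libraries, in no TKO ESC or WT EB library and in 3 knock-in libraries. Among the 14 cofactors and recruiters they were Cxxc1, which binds unmethylated CpG sites, Hells, Usp7 and Zfp57. Zfp57, which protects imprinted methylation, had its region in all 4 knock-in libraries and in 2 others, and Usp7, a deubiquitinase that stabilises Dnmt1, had 10 regions with peaks in 6 libraries, of which the one in both Tet2-KI ESC libraries was seen in 3 knock-in libraries and nowhere else. Hells, a chromatin remodeller needed for DNA methylation, had the tallest of these peaks. At its coding region WT ESC averaged 6.34 ± 0.12, TKO ESC 26.7 ± 15.5 and WT EB 25.7 ± 1.81-fold (SD, 2 libraries each). With 2 libraries against 2 an exact test of this difference cannot give a p below 0.333.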

How the data were processed

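RNA 5hmC was measured by hMeRIP-seq in 13 IP libraries of mouse cells, grouped by their titles. Reads were filtered by the authors for quality and for rRNA and tRNA (Bowtie2), trimmed (Trimmomatic) and mapped to mm9 (STAR). MACS2 then called peaks per IP library, with the matching input as control and a q-value threshold of 0.05, and the authors cut each peak to 200 bp centred on its summit. Versions are not given in the sources used here. The deposited lists hold intervals and, for 9 libraries, the fold enrichment of IP over input, a ratio of the authors' peak caller that is named nowhere in the headerless lists and was read as such from its position and values. The peak positions are in mm9 coordinates as deposited. A peak without strand information was read on the strand of its gene.

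Analysis used Python 3.11.15, numpy 2.4.6, scipy 1.17.1 and matplotlib 3.10.9. The reference was NCBIM37 with GENCODE M1, and 99.7% of intervals lay on its chromosomes. Intervals overlapping by at least 1 bp were merged over all libraries. Summits inside any exon of a coding transcript were taken as exonic, and exon numbers follow the transcript with the longest coding sequence that spans the summit. Groups were compared by two-sided exact permutation tests over libraries. Fold enrichment was tested on the log2 scale for regions with peaks in at least 2 libraries of both groups, using the highest value of a library, with Benjamini-Hochberg adjustment over all such regions. Intervals for shares are exact binomial at 95%, the limit for a 0 is 3 peaks of the list, and both cover counting error only. The genes, lists and tests were chosen with earlier results of these data known. All 9 genes are named, further pathway genes are named when a region was present in every library of a group, and genes of like presence were sought for members with peaks in at least 6 libraries. No pair of libraries shared more than 1.97% of identical intervals over 78 pairs. Scripts were tested on simulated data. The study's differential measure rests on reads and was not repeated. The input libraries were not analysed here.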

Additional observations from a re-analysis of the deposited data

How the results depend on the processing

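None of the 72 alternatives with a p gave one below 0.05, and 0.1 was the lowest, which the small groups set. The number of regions in each library did not move with any overlap with the gene span. Merging at 100 bp, which split Dnmt1 region 1 and Tet2 region 3, gave 9 and 9 regions in Tet2-KI ESC against 5 and 8 in Tet2deltaRBD-KI ESC, a difference still of 2.5 with an exact permutation p of 0.333 in place of 0.667. In the 1703 libraries, which hold no knock-in samples, the differences were 1 against TKO ESC and 3 against WT EB. The difference against TKO ESC went from 1.33 to 0.333 both with lists shortened to 498 peaks and with peaks above the median of their list, and that against WT EB from 2.67 to 0 and to 0.667. The shortened lists kept only 1 WT ESC peak and 1 WT EB peak of these genes, so their values, shares included, rest on single peaks. Leaving out 1 library gave differences of 0.833 to 2 regions for WT ESC against TKO ESC, 2.17 to 3.17 against WT EB and 0.5 to 4.5 between the knock-in groups.

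Shares of peaks were less steady. For WT ESC against TKO ESC the difference turned to 0.00343 percentage points with peaks above the median of their list and to 0.0669 with shortened lists, and leaving out 1 library gave -0.0348 to 0.00173. Against WT EB it went from -0.0152 to -0.124 with peaks above the median and to 0 with shortened lists, and it turned to 0.0435 in the 1703 libraries, and leaving out 1 library gave -0.0486 to 0.0518. Between the knock-in groups leaving out 1 library gave -0.12 to 0.0134. The cause was not tested.

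At Tet1 region 2 the log2 difference stayed negative, from -0.54 to -0.07 when 1 library was left out, and it was -0.17 after division by list medians. With a replicate block the difference was -0.38 with an adjusted p of 0.823, and the block left the differences in regions at 1.33, 2.67 and 2.5 and changed no call. Whether the replicate numbers pair the samples is not known. Descriptions of replicate 1 begin with 1608 in WT ESC and TKO ESC and with 1610 in WT EB. Deviations of same-numbered libraries correlated at -0.0150 to 0.0857. For WT ESC and TKO ESC every library correlated best with its own number, and for WT ESC and WT EB not every one did.

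With merging at 100 bp, 56.3% of all regions were in 1 library, and 0 regions of the 9 genes remained in the 4 knock-in libraries alone. After leaving out 1 library, an alternative added after the data were seen, the regions in all WT ESC and no WT EB libraries numbered 0 to 1, those in Tet2-KI ESC and not in Tet2deltaRBD-KI ESC 2 to 5, and the reverse 0 to 3. The latter 3 were those of Dnmt3b, Uhrf1 and Tet3 in Tet2deltaRBD-KI ESC replicate 2. Sequencing depth is unknown, which limits every statement on a missing peak.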
